A study of Mus musculus with 2 samples.

Results

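The genes described here encode the proteins of the cytosolic ribosome, taken by symbol: Rps or Rpl followed by a digit, Rplp followed by a digit, or Rpsa. Symbols of S6 kinases (10) and of annotated pseudogenes (5) were left out. The rule found 86 of 32285 genes, 34 with small-subunit (Rps) and 52 with large-subunit (Rpl) symbols, of which 4 lie on chromosome X. It brings in Rps19bp1, which encodes a binding partner of Rps19 and not a ribosomal protein, and it misses Fau, which encodes a ribosomal protein fused to a ubiquitin-like protein. All 86 genes were matched by Ensembl identifier to the GENCODE M21 annotation of GRCm38.

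These proteins are assembled on ribosomal RNA in the nucleolus to form the small and the large subunit, and cells keep their supply in step with growth. Their mRNAs are short, abundant and long-lived, and in mammals most begin with a run of pyrimidines, the TOP motif, through which mTOR signalling and the protein Larp1 govern their translation and storage. In tumour infiltrates, lymphocytes usually devote a larger share of their mRNA to this family than macrophages do.

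Both samples came from tumours of MC38, a colon carcinoma line of C57BL/6 origin, in female C57BL/6 mice and were harvested on day 14. In 1 group the mice received LC427, a compound known here by its code name, and in the other the label is Vehicle. After digestion and removal of dead cells, CD45-positive cells were taken on beads and made into 10x 5′ libraries, 1 per group, and the sources used here do not give how many mice stand behind each. With 1 library per group, treatment and library cannot be told apart, and no test between groups is possible. Ranges in brackets are 95% intervals for counting error alone. They are exact for single genes and rest on a log-scale approximation for ratios of the whole family's share. Since UMIs of 1 cell are linked, the true spread is wider.

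The LC427 library held 28732435 UMIs (unique transcript tags) and 6328 cells, and the Vehicle library 33711726 UMIs and 5245 cells. The median cell had 2424.5 UMIs in LC427 and 3560 in Vehicle, and the libraries shared 49 cell barcodes. Cells were classed by marker UMIs (gates): macrophages and monocytes (2624 cells in LC427, 2703 in Vehicle), CD8 T cells (314 in LC427, 299 in Vehicle), mature regulatory dendritic cells (DC, 149 in LC427, 140 in Vehicle) and Ptprc-negative cells with tumour markers (240 in LC427, 117 in Vehicle). Gates for NK cells (91 in LC427, 226 in Vehicle) and CD4 or regulatory T cells (65 in LC427, 69 in Vehicle) were added after the data were seen. The summed CPM (counts per 1000000 UMIs) of check markers outside the gate definitions was highest in their own gate for macrophages, CD8 T cells, CD4 T cells, NK cells and mature regulatory DC. Single shared markers did not all follow. Nkg7 was higher in CD8 T than in NK cells of both libraries. Trac and Trbc2 were higher in CD8 T than in CD4 T cells of both libraries, though by little in Vehicle. Lck was higher in CD4 T than in CD8 T cells in LC427 only. In the Ptprc-negative gate, Lamb1 reached 123 CPM in LC427 and 102 CPM in Vehicle, but Cldn4 was at 0 in both libraries and Cd24a at 0.345 CPM in LC427 and 0 in Vehicle. That gate is therefore called by its rule, Ptprc-negative with Tm4sf1, Sox9, Ankrd1, Krt8, Krt18 or Epcam. The macrophage check markers C1qa, Lyz2 and Apoe together reached 776 CPM in NK cells of LC427 and 145 CPM in those of Vehicle, 311 CPM in LC427 and 192 CPM in Vehicle CD8 T cells, and 311 CPM in LC427 and 180 CPM in Vehicle CD4 T cells. None of those 3 markers was at 0 in these gates, and their part in the results below was not tested.

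The family is known for pyrimidine runs at its transcription starts. Runs of at least 8 bases near the annotated start were counted here, and most of its genes with an entry held none. That length was set for the count and does not define the TOP motif. In RefSeq promoter windows (GRCm38.p6), 66 of the 86 genes had an entry. An unbroken run of at least 8 bases made only of C and T, on the sense strand within 20 bases before to 20 bases from the annotated start, was present in 30 of the 66 (45.5%). Among all 27025 genes with an entry it was present in 18.4%. The longest such run had a median of 7 bases in the ribosomal protein genes and 5 in all genes. On the other strand the shares were 7.58% for the ribosomal protein genes and 20.2% for all genes. The windows printed next belong to 4 genes whose part of the family was higher in LC427 cells and 2 whose part was lower, and capitals mark the longest C and T run. They are shown because they include the 4 runs of at least 8 bases among the 12 genes of the ranking below that had an entry. Among the genes that recur below, Rps29, Rpl29, Rpl21 and Rpl3 had no entry.
Rpl38 (higher in LC427, chr11:114668570-114668599, plus strand): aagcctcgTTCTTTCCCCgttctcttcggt
Rpl35a (higher in LC427, chr16:33056469-33056498, plus strand): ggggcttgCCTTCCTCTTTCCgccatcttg
Rps27 (higher in LC427, chr3:90213629-90213658, minus strand): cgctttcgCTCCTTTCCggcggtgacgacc
Rpl37a (higher in LC427, chr1:72711236-72711265, plus strand): tcgcgtcaCTTCCgctcgccggtctaaaac
Rpl15 (lower in LC427, chr14:18270969-18270998, minus strand): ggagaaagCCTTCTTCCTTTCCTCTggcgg
Rplp0 (lower in LC427, chr5:115559470-115559499, plus strand): ccgcctggTTCTCCTataaaaggcacacgc
The run was 10 bases in Rpl38, 13 in Rpl35a and 9 in Rps27, against 5 in Rpl37a, 17 in Rpl15 and 7 in Rplp0. Counted from the annotated start, it began at -2 in Rpl38, -5 in Rpl35a, -2 in Rps27 and -4 in Rpl15. In Rpl37a it began at -16 and in Rplp0 at 11, so these marked runs do not lie at the annotated start. The 6 windows not printed had shorter runs, of 3 bases in Rpl41 and 4 in Rps28, both higher in LC427, and of 4 in Rpl26, 6 in Rps2, 4 in Rps4x and 5 in Rps7, all lower. A run of 8 or more was thus present in 3 of 6 higher genes and 1 of 6 lower genes. In macrophages the 30 genes with a run had a median log2 ratio of CPM, LC427 over Vehicle, of -0.03, the 35 measured genes without one 0.05, and the 20 without an entry -0.11. The CD8 T medians were -0.17 for 30 genes, -0.08 for 33 and -0.26 for 20.

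Ribosomal protein mRNAs made up 18.7% to 29.9% of all UMIs in the compared classes, and by summed UMIs the classes kept their order in both libraries. Medians over single cells did not keep it throughout. Mature regulatory DC had 18.5% and macrophages 19.0% in LC427, against 19.7% and 18.2% in Vehicle. CD8 T cells had 25.5% and Ptprc-negative cells 26.3% in LC427, against 26.5% and 26.2% in Vehicle. The values that follow are of summed UMIs. NK cells gave 29.9% of their UMIs to the family in LC427 and 29.6% in Vehicle. Ptprc-negative cells gave 27.0% in both libraries, and CD8 T cells 26.4% in both. CD4 or regulatory T cells stood at 22.6% in LC427 and 21.5% in Vehicle, mature regulatory DC at 20.8% in LC427 and 20.6% in Vehicle, and macrophages at 19.6% in LC427 and 18.7% in Vehicle. The lymphocyte and Ptprc-negative classes thus lay above the myeloid classes in both libraries. The gap between CD4 T cells and mature regulatory DC was of the size of the differences between the libraries.

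Between LC427 and Vehicle the share of the family differed little. The ratio was 1.05 in macrophages (1.045 to 1.049), 1.00 in CD8 T cells (0.998 to 1.01), 1.01 in NK cells (1.003 to 1.02), 1.01 in mature regulatory DC (1.003 to 1.02), 1.05 in CD4 T cells (1.04 to 1.06) and 0.999 in Ptprc-negative cells (0.997 to 1.00). With every cell thinned to 1000 UMIs and gated anew, which left 1054 macrophages in LC427 and 951 in Vehicle, it was 1.02 in macrophages, but 0.971 in CD8 T cells and 0.942 in mature regulatory DC, so the direction turned in the last 2 gates under that setting. Over single macrophages the quartiles were 15.3%, 19.0% and 22.2% in LC427 and 14.6%, 18.2% and 21.8% in Vehicle, so the cells of both libraries overlapped over most of their range. Over single CD8 T cells they were 22.4%, 25.5% and 28.8% in LC427 and 22.2%, 26.5% and 30.5% in Vehicle. Cells outside every gate went the other way from macrophages, with 21.4% in LC427 and 22.1% in Vehicle, a ratio of 0.968 (0.966 to 0.970). The mitochondrial share of macrophage UMIs was 1.53% in LC427 and 2.33% in Vehicle, and that of Gm42418 and AY036118, loci that overlap ribosomal RNA, was 8.66% in LC427 and 9.98% in Vehicle. With those loci out of the total the macrophage shares were 21.5% in LC427 and 20.8% in Vehicle, a ratio of 1.03. The part of mitochondrial content in the shares was not tested beyond the values given under the alternatives.

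**Figure D1:**
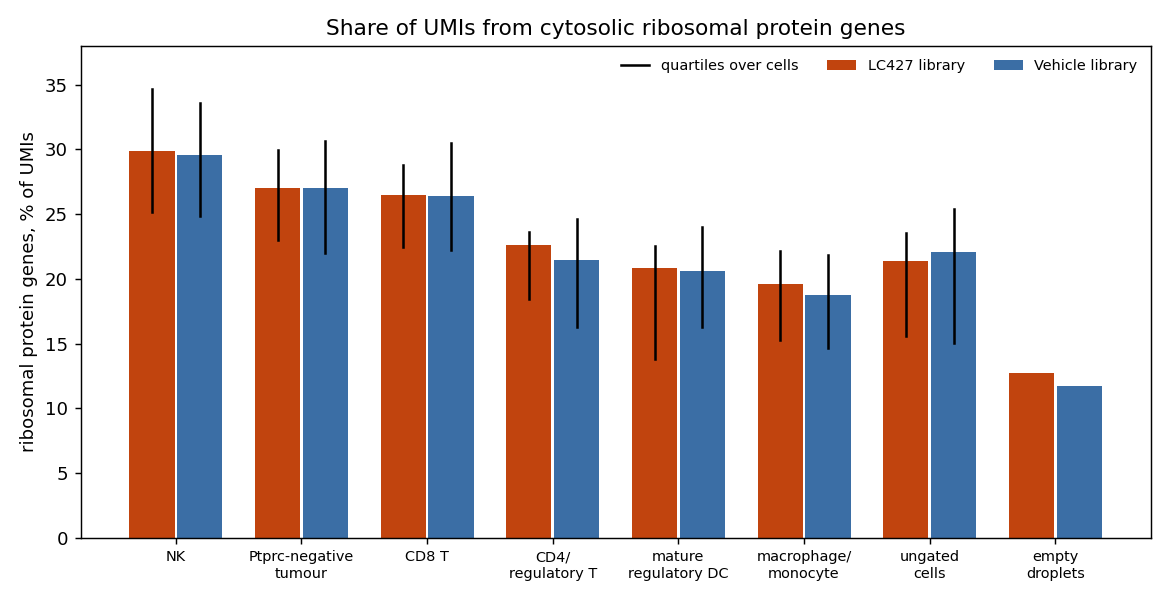
Bars give the percent of UMIs from the 86 ribosomal protein genes in each gate, LC427 left and Vehicle right, and black lines span the quartiles over cells. The paired bars differ little, from 29.9% in LC427 and 29.6% in Vehicle in NK cells down to 19.6% in LC427 and 18.7% in Vehicle in macrophages, and empty droplets stand lowest at 12.7% in LC427 and 11.7% in Vehicle.

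Within macrophages the share differed little between subsets. The libraries differed in the makeup of the class. Resident-like cells, with Mrc1, Folr2 or Cbr2 and without the monocyte genes Ly6c2, Ccr2 and Vcan, numbered 490 in LC427 and 1144 in Vehicle. Cells with monocyte genes and without the resident-like genes numbered 540 in LC427 and 268 in Vehicle. The other 1594 in LC427 and 1291 in Vehicle had UMIs of both gene sets, or too few of either to be placed. The part of this makeup in the macrophage ratio of 1.05 was not tested beyond the values by subset. Resident-like cells gave 19.3% in LC427 and 18.0% in Vehicle, and cells with monocyte genes gave 18.8% in LC427 and 18.7% in Vehicle. The remaining macrophages gave 19.96% in LC427 and 19.4% in Vehicle. Macrophages with a UMI of Mki67, Top2a, Birc5 or Cdk1, genes of the cell cycle, stood at 20.1% in LC427 and 18.7% in Vehicle, and those without at 19.3% in LC427 and 18.8% in Vehicle. In the Ptprc-negative gate the cells with such a UMI had the lower share, 26.9% in LC427 and 26.5% in Vehicle, against 27.6% in LC427 and 29.8% in Vehicle in cells without. Cells with such a UMI were also deeper, with medians of 4040 UMIs in LC427 and 5898.5 in Vehicle macrophages, against 2566 in LC427 and 3803 in Vehicle macrophages without. In macrophages the share was larger in deeper cells, with 16.2% in LC427 and 15.6% in Vehicle among cells of 1000 to under 2000 UMIs and 21.8% in LC427 and 19.5% in Vehicle in cells of 8000 or more, and LC427 was above Vehicle in each of the 4 depth classes.

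Behind the steady total, single genes moved apart. In macrophages 5 of the 85 measured genes were at least 1.5-fold higher in LC427 and 3 were at least 1.5-fold lower, while 11.05% of all 11489 measured genes were higher and 6.07% lower. The family was thus called no more often than all measured genes. That background takes in any gene with at least 20 UMIs over both libraries, where counting error alone can reach this fold. Most members have far more UMIs, so the shares are not like for like. The 5 higher members were Rpl37a, Rpl38, the rare paralogues Rpl39l and Rpl3l, and Rps19bp1, which does not encode a ribosomal protein. The 3 lower members were Rpl29, Rpl21 and Rplp0. The 8 members became 4, all lower in LC427, with cells thinned to 1000 UMIs, and 2, both higher in LC427, among cells of 2000 to under 4000 UMIs. Scaled to the median ratio of all genes, 2 members, Rpl39l and Rpl3l, were higher and 6 lower, so the balance of directions rests on the scaling. The family's median log2 ratio was -0.01, against 0.12 for all genes. Among the 83 members with at least 100 UMIs in each library, log2 ratios ran from -0.68 to 0.65. For 27 of them the interval lay wholly above 1 and for 38 wholly below.

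In the other gates the family was called about as often as all genes or less often, except for the lower calls of NK cells. In CD8 T cells 4 of 83 members were higher and 9 lower, against 13.1% and 10.8% of all genes, and in the Ptprc-negative gate 6 were higher and 7 lower of 83, against 11.9% and 10.7%, or 4 higher and 9 lower when scaled to the median ratio. Mature regulatory DC had 7 higher and 4 lower of 84, against 13.7% and 16.9%, or 30.6% in either direction, but 1 higher and 12 lower with cells thinned to 1000 UMIs. In CD4 T cells 6 of 82 were higher and 2 lower, against 16.4% and 15.2%, or 31.6% in either direction. NK cells had 7 higher and 19 lower of 83, against 23.5% and 16.1% of all genes, or 39.6% in either direction, with only 91 cells in LC427. These gates come from the same pair of libraries and are not independent of each other. The unlike UMI counts of members and other genes limit these comparisons too.

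The P stalk, which recruits the translation factors to the large subunit, did not move as a unit. Rplp0, its anchoring protein, had 932 CPM in LC427 macrophages and 1405 CPM in Vehicle macrophages, a ratio of 0.663 (0.646 to 0.680), or 0.738 with cells thinned to 1000 UMIs. It was at 1223 CPM in LC427 and 1928 CPM in Vehicle among CD8 T cells, and at 1785 CPM in LC427 and 3467 CPM in Vehicle Ptprc-negative cells, where its ratio of 0.515 was the lowest of the members with at least 100 UMIs in each library. Rplp1, one of the acidic proteins that Rplp0 holds, had 3043 CPM in LC427 macrophages and 3853 CPM in Vehicle macrophages, a ratio of 0.790, and a ratio of 0.969 in the Ptprc-negative gate. Its partner Rplp2 stood at 3028 CPM in LC427 macrophages and 3058 CPM in Vehicle macrophages, a ratio of 0.990, and at 1.19 in the Ptprc-negative gate. Rplp0 lies on chromosome 5 from 115559467 to 115563727, plus strand, with a coding length of 951 bases, against 342 for Rplp1 and 345 for Rplp2.

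Members with known roles in signalling differed among themselves. Rps6, the substrate of the S6 kinases, had 794 CPM in LC427 macrophages and 907 CPM in Vehicle macrophages, a ratio of 0.875 (0.850 to 0.901), and a ratio of 0.805 in CD8 T cells. Rpl5, which binds 5S ribosomal RNA and, when free, Mdm2, had 594 CPM in LC427 and 576 CPM in Vehicle macrophages, a ratio of 1.03, and 1085 CPM in LC427 and 1054 CPM in Vehicle CD8 T cells. Rpl11, its partner in the 5S particle, had 2304 CPM in LC427 and 2266 CPM in Vehicle macrophages, a ratio of 1.02, but 2605 CPM in LC427 and 3018 CPM in Vehicle CD8 T cells and 2407 CPM in LC427 and 3426 CPM in Vehicle NK cells, ratios of 0.863 and 0.702. Rps3, at the mRNA entry of the small subunit, had 1301 CPM in LC427 and 1640 CPM in Vehicle macrophages and 1401 CPM in LC427 and 2111 CPM in Vehicle CD8 T cells, ratios of 0.793 and 0.664. The intervals of Rpl11 lay wholly below 1 in CD8 T and NK cells, while those of Rpl5 included 1 in both.

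The genes that gained most within the family recurred from gate to gate. Among members with at least 100 UMIs in each library, the 5 with the highest LC427 over Vehicle ratio of family share, ranked by the bound nearest 1, were drawn in all 6 gates from 7 genes: Rpl37a, Rpl38, Rps29, Rpl35a, Rps28, Rps27 and Rpl41. The family share is a gene's percent of all ribosomal protein UMIs, so a gain of some genes lowers the others by construction. Rps29, a small zinc-binding protein of the small subunit, lies on chromosome 12 from 69157722 to 69159186, minus strand, and has a coding length of 168 bases. It had 10452 CPM in LC427 macrophages and 7248 CPM in Vehicle macrophages, a ratio of 1.44 (1.43 to 1.46). In CD8 T cells it had 13209 CPM in LC427 and 7733 CPM in Vehicle, a ratio of 1.71, and in NK cells 16205 CPM in LC427 and 7861 CPM in Vehicle, a ratio of 2.06 (1.98 to 2.15). In mature regulatory DC it had 10015 CPM in LC427 and 6279 CPM in Vehicle, a ratio of 1.59, and in the Ptprc-negative gate 6354 CPM in LC427 and 3668 CPM in Vehicle, a ratio of 1.73. Its ratio was at least 1.44 in every gate, and 1.34 in macrophages with cells thinned to 1000 UMIs.

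Rpl37a, a zinc-binding protein of the large subunit, received more UMIs than any other member in the macrophage, CD8 T, NK, CD4 T and mature regulatory DC gates of both libraries, and in the Ptprc-negative gate of LC427. These are counts of tagged transcript ends and not levels per length. It lies on chromosome 1 from 72711290 to 72713813, plus strand, with a coding length of 276 bases. Macrophages held 13369 CPM in LC427 and 8632 CPM in Vehicle, a ratio of 1.55 (1.54 to 1.56). CD8 T cells held 20619 CPM in LC427 and 12340 CPM in Vehicle, a ratio of 1.67, and NK cells 25185 CPM in LC427 and 12821 CPM in Vehicle, a ratio of 1.964. In CD4 T cells Rpl37a had 15718 CPM in LC427 and 9924 CPM in Vehicle, and in mature regulatory DC 14492 CPM in LC427 and 8379 CPM in Vehicle, ratios of 1.58 and 1.73. Rpl37a was 1.5-fold or more higher in LC427 in all 6 gates, but in macrophages its ratio was 1.46 with cells thinned to 1000 UMIs, 1.47 among cells of 2000 to under 4000 UMIs and 1.42 when scaled to the median ratio, all under that fold. Among cells of 2000 to under 4000 UMIs it was also under it in CD8 T cells, at 1.44, and in mature regulatory DC, at 1.45.

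Rpl38, whose loss in mice disturbs the axial skeleton, had 4756 CPM in LC427 macrophages and 3164 CPM in Vehicle macrophages, a ratio of 1.503, which lay between 1.38 and 1.51 over the alternatives. In NK cells its ratio was 1.67 and in mature regulatory DC 1.38. Rps28, a small protein near the mRNA exit of the small subunit, had 7169 CPM in LC427 macrophages and 5027 CPM in Vehicle macrophages, a ratio of 1.43, with ratios of 1.502 to 1.76 in the other 5 gates. Rpl35a, a large-subunit protein mutated in some human patients with Diamond-Blackfan anaemia, had 4953 CPM in LC427 and 3464 CPM in Vehicle macrophages, a ratio of 1.43, and a ratio of 1.74 in NK cells. Rpl41, the shortest member with a coding length of 75 bases, had 3584 CPM in LC427 and 2799 CPM in Vehicle macrophages, a ratio of 1.28, and 3882 CPM in LC427 and 2120 CPM in Vehicle Ptprc-negative cells, a ratio of 1.83. Among members with at least 100 UMIs in each library, Rpl41 had the largest ratio in the Ptprc-negative gate and was the least raised of the 7 in macrophages.

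**Figure D2:**
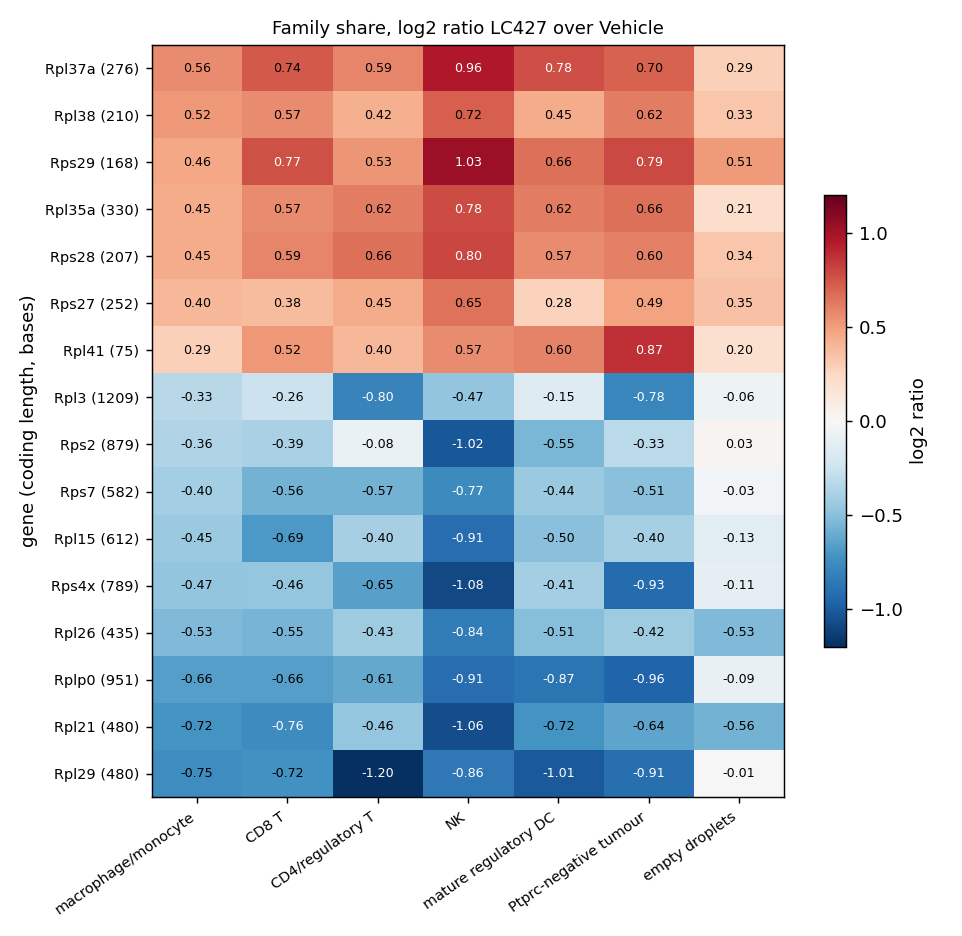
Each cell gives the log2 ratio, LC427 over Vehicle, of a gene's percent of all ribosomal protein UMIs, for genes of the ranking rule that the text names, with coding length in brackets and gates as columns. Genes of up to 330 coding bases fill the upper, red rows and longer genes the lower, blue rows, while most cells of the empty droplet column at the right are paler, with Rpl29 at -0.01.

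The genes that lost most within the family were longer. Across the 6 gates the genes among the 5 lowest ratios included Rpl29, Rpl21, Rplp0, Rpl26, Rpl15, Rps4x, Rpl3, Rps2 and Rps7. Rpl29, a basic protein of the large subunit on chromosome 9 from 106429454 to 106431568, plus strand, had 548 CPM in LC427 macrophages and 877 CPM in Vehicle macrophages, a ratio of 0.624 (0.604 to 0.645), or 0.738 with cells thinned to 1000 UMIs. It had 624 CPM in LC427 and 1027 CPM in Vehicle among CD8 T cells, a ratio of 0.608, and 716 CPM in LC427 and 1343 CPM in Vehicle Ptprc-negative cells, a ratio of 0.533. Its ratio lay between 0.458 and 0.624 in the 6 gates, yet in empty droplets Rpl29 stood at 356 CPM in LC427 and 331 CPM in Vehicle, a ratio of 1.08 (0.990 to 1.17).

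Rpl21, a large-subunit protein, had 646 CPM in LC427 macrophages and 1015 CPM in Vehicle macrophages, a ratio of 0.637, and ratios of 0.593 in CD8 T cells and 0.484 in NK cells. Rps4x, the X-linked small-subunit protein, had 1521 CPM in LC427 and 2012 CPM in Vehicle macrophages, a ratio of 0.756, but 3208 CPM in LC427 and 6103 CPM in Vehicle Ptprc-negative cells, a ratio of 0.526. Rpl3, which reaches toward the peptidyl transferase centre, had 727 CPM in LC427 and 873 CPM in Vehicle macrophages, a ratio of 0.833, and a ratio of 0.580 in the Ptprc-negative gate. Many of these genes have processed pseudogenes and close copies, and how reads shared with them were counted was not tested. Rps4x and Rpl3 were thus lower by over 1.5-fold in the Ptprc-negative gate and by less in macrophages, and that difference between gates was not tested.

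The shortest and the longest members moved apart inside the family. The 12 members with up to 300 coding bases made up 29.7% of ribosomal protein UMIs in LC427 macrophages and 22.8% in Vehicle macrophages. In CD8 T cells they made up 31.7% in LC427 and 22.3% in Vehicle, in NK cells 34.3% in LC427 and 21.4% in Vehicle, in CD4 T cells 29.7% in LC427 and 22.1% in Vehicle, in mature regulatory DC 30.7% in LC427 and 22.3% in Vehicle, and in the Ptprc-negative gate 23.9% in LC427 and 16.4% in Vehicle. The 25 members over 600 bases made up 15.7% in LC427 macrophages and 18.2% in Vehicle macrophages, and 18.6% in LC427 and 24.2% in Vehicle in the Ptprc-negative gate. In every gate the LC427 library had the larger short part and the smaller long part. The length classes were chosen after the ratios had been seen, so this is a description.

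Across members, the rank correlation of the log2 ratio with coding length was -0.47 in macrophages (85 genes), -0.44 in CD8 T cells (83), -0.44 in mature regulatory DC (84) and -0.74 in the Ptprc-negative gate (83). All points of a gate share the same 2 libraries and their depth. Over all other genes the same measure was 0.21 in macrophages (10818 genes), 0.00 in CD8 T cells and 0.24 in the Ptprc-negative gate. In macrophages the median log2 ratio was 0.41 for the 12 shortest members, -0.01 for 30 members of over 300 to 450 bases, -0.16 for 19 members of over 450 to 600 bases and -0.17 for 20 members of over 600 to 900 bases. For other genes it was 0.02, -0.05, -0.03 and 0.03 in the same classes. Members of over 450 to 600 bases had medians of -0.40 in CD8 T cells, -0.50 in NK cells and -0.32 in mature regulatory DC. Those of over 600 to 900 bases lay higher there, at -0.14, -0.36 and -0.24. In CD4 T and Ptprc-negative cells they lay lower, at -0.22 and -0.38 against -0.18 and -0.24. With transcript length the members' correlation was -0.32 in macrophages, -0.39 in CD8 T cells, -0.31 in mature regulatory DC and -0.49 in Ptprc-negative cells.

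**Figure D3:**
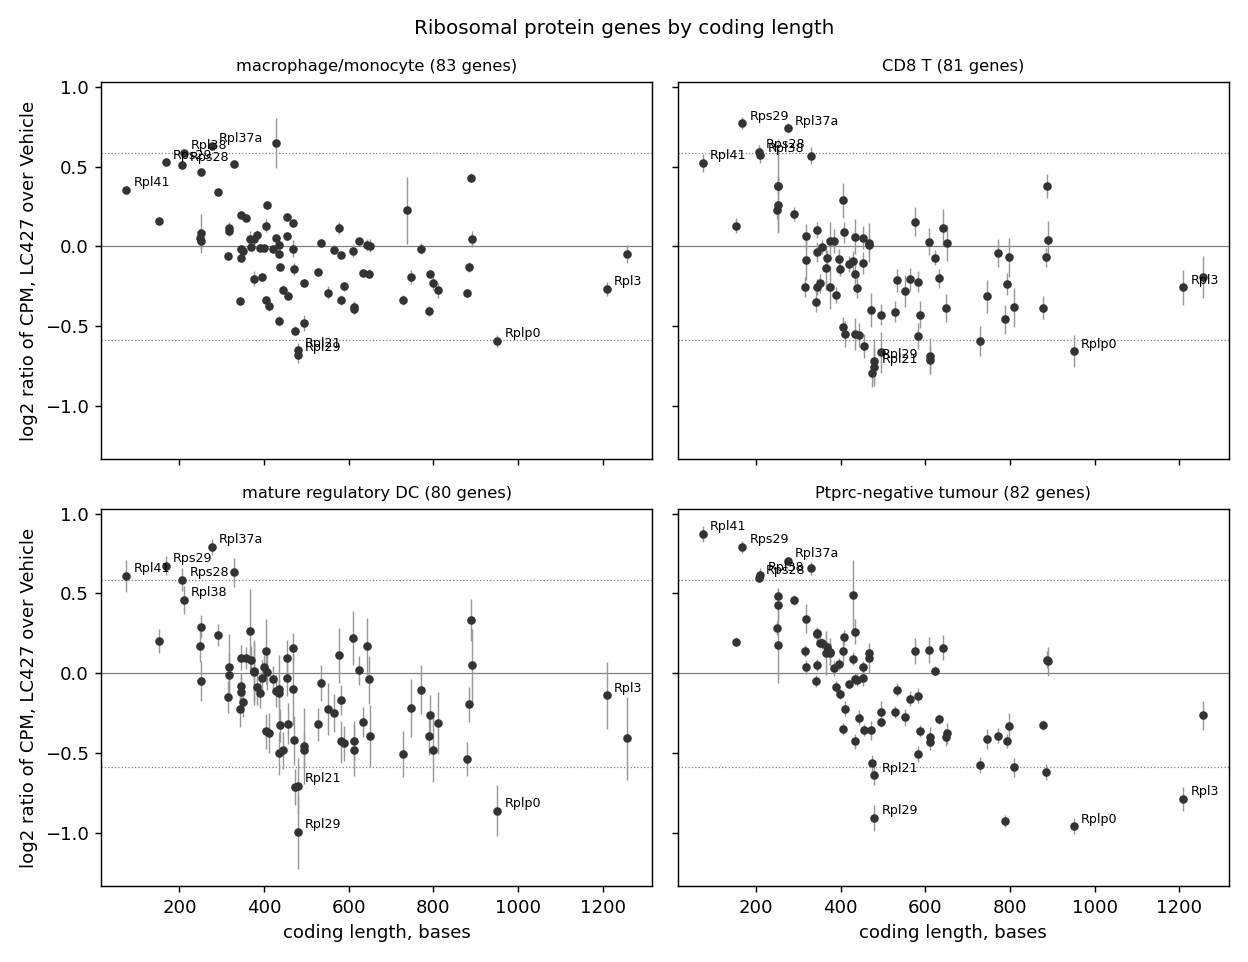
Points are members with at least 100 UMIs in each library, placed by coding length in bases and by log2 ratio of CPM, LC427 over Vehicle, with grey lines for 95% counting intervals and dotted lines at 1.5-fold. The shortest genes lie highest, with Rps29 and Rpl37a at the top in CD8 T cells, and Rplp0 and Rpl29 lie low in all 4 gates.

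Not every short member was raised to the same extent. Rps29, Rps28, Rpl38, Rpl37a and Rpl35a had macrophage ratios of 1.43 to 1.55, while Rps21, a small-subunit protein with 249 coding bases, had 3176 CPM in LC427 macrophages and 3066 CPM in Vehicle macrophages, a ratio of 1.04. Rpl39, a large-subunit protein of the exit tunnel with 153 coding bases, had 4867 CPM in LC427 and 4356 CPM in Vehicle, a ratio of 1.12. Rps27l had 693 CPM in LC427 and 677 CPM in Vehicle, a ratio of 1.02. Rpl35a, at 330 bases, lies outside the shortest class and was among the most raised, while Rpl36, at 315 bases, had 2598 CPM in LC427 and 2707 CPM in Vehicle and a ratio of 0.960.

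Other short and abundant transcripts lay closer to all genes. Among genes of up to 300 coding bases with at least 500 CPM in both libraries, the 10 ribosomal protein genes had a median log2 ratio of 0.41 in macrophages, all 10 above 0. The 43 other such genes had a median of 0.20, with 30 of 43 above 0, against a median of 0.12 and 63.7% above 0 for all genes. Among them, Tmsb4x was at a ratio of 0.982. The CD8 T medians were 0.52 for 9 members and 0.21 for 30 other genes, with 0.03 for all genes, and in the Ptprc-negative gate 0.54 for 10 members and 0.28 for 34, with 0.06 for all genes. Whether the members exceed them was not tested.

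The size of the short part also moved with the depth of the cells. In macrophages of 1000 to under 2000 UMIs the short members made up 36.1% of the family in LC427 and 30.8% in Vehicle. At 2000 to under 4000 UMIs the values were 32.3% in LC427 and 26.3% in Vehicle, at 4000 to under 8000 UMIs 28.1% in LC427 and 23.1% in Vehicle, and at 8000 UMIs or more 23.5% in LC427 and 19.9% in Vehicle. The same first 3 classes of CD8 T cells gave 36.3% in LC427 and 27.4% in Vehicle, 33.0% in LC427 and 24.5% in Vehicle, and 30.4% in LC427 and 22.4% in Vehicle. The short part was thus smaller in deeper cells of both libraries, and LC427 lay above Vehicle in each depth class. Within macrophages of 2000 to under 4000 UMIs the ratio was 1.23, against 1.30 over all macrophages.

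**Figure D4:**
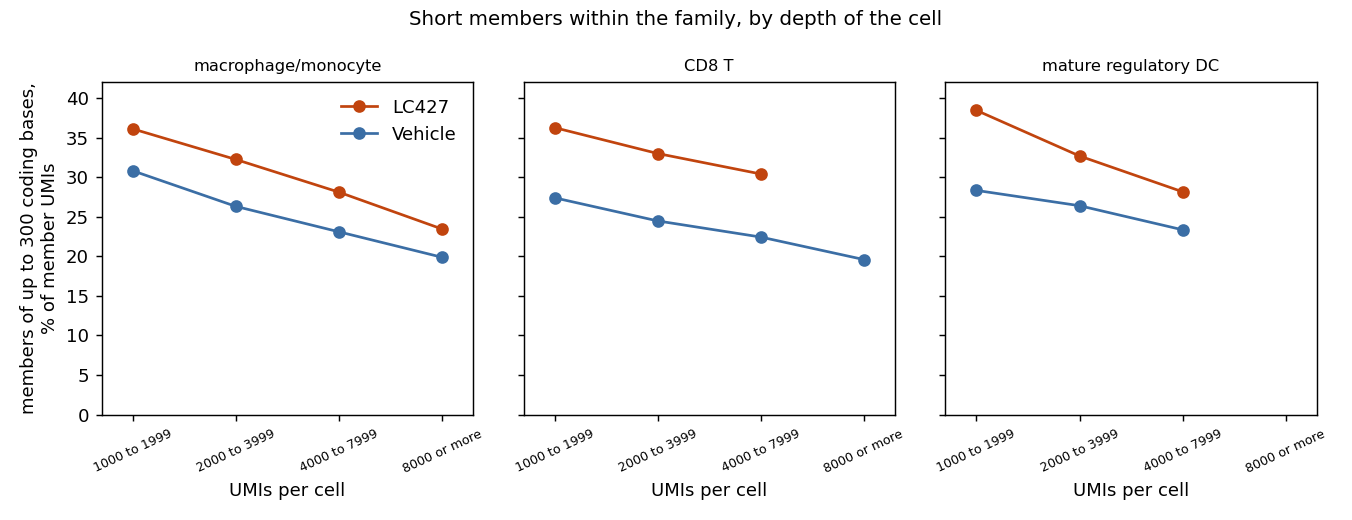
Lines give the percent of ribosomal protein UMIs from the 12 members of up to 300 coding bases, by UMIs per cell, for LC427 and Vehicle in macrophages, CD8 T cells and mature regulatory DC. Both lines run lower at greater depth, in macrophages from 36.1% in LC427 and 30.8% in Vehicle to 23.5% in LC427 and 19.9% in Vehicle, with LC427 above Vehicle at each depth that holds at least 20 cells.

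Several members marked a class in both libraries, whatever the treatment. Rps27l, the paralogue of Rps27 and known in human cells as a target of p53, lies on chromosome 9 from 66946086 to 66949516, plus strand. It had 1917 CPM in LC427 and 1983 CPM in Vehicle among mature regulatory DC, against 693 CPM in LC427 and 677 CPM in Vehicle macrophages. The other gates were lower or like macrophages, at 698 CPM in LC427 and 518 CPM in Vehicle Ptprc-negative cells, 690 CPM in LC427 and 459 CPM in Vehicle CD4 T cells, 495 CPM in LC427 and 413 CPM in Vehicle CD8 T cells and 448 CPM in LC427 and 365 CPM in Vehicle NK cells. In LC427 the Ptprc-negative, macrophage and CD4 T gates lay at 690 to 698 CPM and are not ordered beyond counting error. As a part of the family, Rps27l in mature regulatory DC was 2.61 times its macrophage value in LC427 (2.43 to 2.80) and 2.66 times in Vehicle. In NK cells it was 0.424 times in LC427 and 0.342 times in Vehicle, and in CD8 T cells 0.530 times in LC427 and 0.433 times in Vehicle.

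Rps27 itself, a zinc-finger protein of the small subunit, was lowest in macrophages. In CD4 T cells it had 7354 CPM in LC427 and 5128 CPM in Vehicle, against 4064 CPM in LC427 and 2936 CPM in Vehicle macrophages. Its part of the family in CD4 T cells was 1.57 times the macrophage value in LC427 and 1.53 times in Vehicle. NK cells had 9169 CPM in LC427 and 5778 CPM in Vehicle, CD8 T cells 7337 CPM in LC427 and 5636 CPM in Vehicle, and mature regulatory DC 6138 CPM in LC427 and 5016 CPM in Vehicle. All 5 other gates thus lay above macrophages in both libraries, mature regulatory DC included.

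Rpsa, a small-subunit protein also known as the laminin receptor, stood out in CD8 T cells. They had 3875 CPM in LC427 and 4064 CPM in Vehicle, against 1634 CPM in LC427 and 1787 CPM in Vehicle macrophages. Its part of the family was 1.76 times the macrophage value in LC427 and 1.62 times in Vehicle. NK cells were close, with 3585 CPM in LC427 and 3754 CPM in Vehicle, and CD4 T cells had 2482 CPM in LC427 and 2885 CPM in Vehicle. Rpsa was the only member 1.5-fold or more higher in family share in CD8 T cells than in macrophages in both libraries, among members with at least 20 UMIs in each gate and library.

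The Ptprc-negative gate had the most distinct makeup. Rps2, a small-subunit protein, had 5649 CPM in LC427 and 7080 CPM in Vehicle there, against 2098 CPM in LC427 and 2571 CPM in Vehicle macrophages, and its part of the family was 1.955 times the macrophage value in LC427 and 1.91 times in Vehicle. Rps18, in the head of the small subunit, had 4020 CPM in LC427 and 5148 CPM in Vehicle there and 1724 CPM in LC427 and 2136 CPM in Vehicle macrophages, which is 1.69 times in family share in LC427 and 1.67 times in Vehicle. Rpl7, Rpl17, Rpl36a, Rps4x and Rps19bp1 were also at least 1.5-fold higher in family share in both libraries. Rps29, Rpl37a, Rpl13a, Rpl36al and Rpl22l1 were lower past that fold, with Rps29 at 0.442 times its macrophage part in LC427 and 0.351 times in Vehicle. In CPM, 35 of 84 members were at least 1.5-fold higher than in macrophages in both libraries and 2 were lower, against 36.4% and 20.1% of all genes tested. For CD8 T cells the counts were 15 higher and 0 lower of 84, against 24.0% and 18.5%, and for NK cells 28 and 1 of 84, against 14.2% and 15.6%. For mature regulatory DC they were 3 and 0, against 13.6% and 16.1%, and for CD4 T cells 3 and 0, against 19.8% and 10.6%. The higher counts in NK cells exceed their background share, and those in CD8 T and Ptprc-negative cells do not differ much from theirs. Those background shares likewise take in genes with few UMIs.

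**Figure D5:**
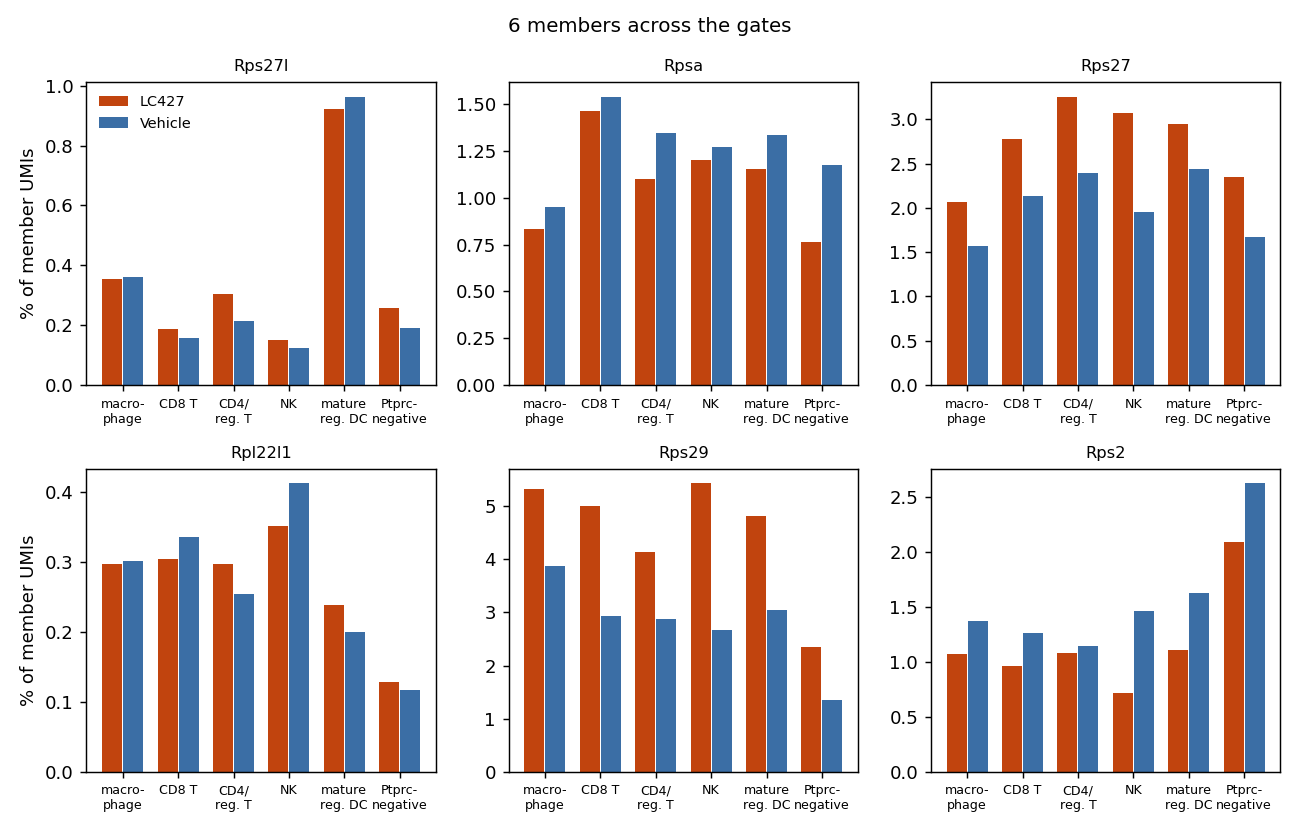
The plot gives the family share of selected members across the 6 gates in LC427 and Vehicle. Rps27l stands highest in mature regulatory DC in both libraries, at 0.921% in LC427 and 0.963% in Vehicle, and Rps2 in the Ptprc-negative gate, at 2.09% in LC427 and 2.62% in Vehicle.

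Other paralogues also differed by class. Rpl22, needed for the development of mouse alpha-beta T cells, had 2152 CPM in LC427 macrophages and 2043 CPM in Vehicle macrophages and 2649 CPM in LC427 and 2584 CPM in Vehicle CD8 T cells, with ratios of 1.05 and 1.03. Its paralogue Rpl22l1 had 582 CPM in LC427 and 564 CPM in Vehicle macrophages and 1049 CPM in LC427 and 1217 CPM in Vehicle NK cells, but 345 CPM in LC427 and 316 CPM in Vehicle Ptprc-negative cells. Rpl36a and Rpl36al, which encode nearly the same protein, differed in where they were high. Rpl36a stood highest in family share in the Ptprc-negative gate, at 1.28% in LC427 and 1.246% in Vehicle, where Rpl36al had its lowest Vehicle value of 0.246%. Reads of such pairs, and of Rps27 and its close copy Rps27rt, may be hard to assign, and this was not tested.

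Paralogues known from muscle and testis were close to absent. Rpl10l, a testis gene, had 0 UMIs in both libraries. Rpl39l, also known from testis, had 34 UMIs in LC427 and 13 in Vehicle over all cells, and 19 in LC427 and 1 in Vehicle macrophages, a ratio of 28.7 whose interval ran from 4.56 to 1192. Rpl3l, the striated muscle paralogue of Rpl3, had 45 UMIs in LC427 macrophages and 21 in Vehicle macrophages, a ratio of 3.23 (1.89 to 5.72). Of its few UMIs, 15 in LC427 and 13 in Vehicle fell in mature regulatory DC, at 33.9 CPM in LC427 and 18.4 CPM in Vehicle against 4.99 CPM in LC427 and 1.54 CPM in Vehicle macrophages. Rpl3l had 0 UMIs in NK cells and in the Ptprc-negative gate of both libraries. Rps19bp1 had 77.8 CPM in LC427 macrophages and 49.6 CPM in Vehicle macrophages, a ratio of 1.57 (1.41 to 1.74), and 163 CPM in LC427 and 116 CPM in Vehicle Ptprc-negative cells.

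Empty droplets, barcodes of 10 to 100 UMIs that hold free RNA, numbered 71494 in LC427 and 67869 in Vehicle. The family made up 12.7% of their UMIs in LC427 and 11.7% in Vehicle, a ratio of 1.08. With the ribosomal RNA loci out of the total the values were 16.9% in LC427 and 17.6% in Vehicle, a ratio of 0.962, so the direction turned with that choice. Those loci made up 24.9% of the empty droplet UMIs in LC427 and 33.2% in Vehicle. There 3 of 83 members were at least 1.5-fold higher and 0 lower, against 16.7% and 3.98% of all genes: Rps29, Rps19bp1 and Rps27rt. Rps29 had 6922 CPM in LC427 and 4479 CPM in Vehicle, a ratio of 1.55, close to its ratio of 1.44 in macrophages. Rplp0 had 827 CPM in LC427 and 813 CPM in Vehicle, a ratio of 1.02, against 0.663 in macrophages. The short members made up 27.5% of the family in LC427 and 22.9% in Vehicle, a smaller gap than in any gate, and the rank correlation with coding length was -0.14 over 83 members.

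Genes that work with the ribosome were read beside it, from lists chosen with earlier results of these data known. Of 20 ribosome biogenesis genes, such as Fbl, Ncl and Nop56, 10 were at least 1.5-fold higher and 0 lower in LC427 macrophages, where 11.05% of all genes were higher. Together they made up 0.124% of UMIs in LC427 and 0.0805% in Vehicle, and their median log2 ratio was 0.59, against 0.12 for all genes. The Ptprc-negative gate had 8 higher of 20 (11.9% of all genes), CD8 T cells 4 of 20 (13.1%) and empty droplets 8 of 20 (16.7%), with 0 lower in each. NK cells had 10 higher and 1 lower of 15 measured (23.5% and 16.1%), and CD4 T cells 2 higher and 0 lower of 7 (16.4% and 15.2%). Mature regulatory DC had few calls, with 1 higher and 2 lower of 12 (13.7% and 16.9%). Together the biogenesis genes still made up more there in LC427, at 0.101% of UMIs against 0.0818% in Vehicle. Their median log2 ratio in that gate was 0.28, against 0.01 for all genes. Other mRNAs of the TOP class, which share the family's translational control, gave 0 higher and 1 lower of 23 in macrophages, with 1.93% of UMIs in LC427 and 2.08% in Vehicle. Fau, a TOP mRNA whose product includes a small-subunit protein, had 6026 CPM in LC427 and 5406 CPM in Vehicle macrophages, a ratio of 1.11, and 1.00 in CD8 T cells. Tpt1, a growth-related TOP mRNA, had 2118 CPM in LC427 and 2987 CPM in Vehicle macrophages, a ratio of 0.709, but 2698 CPM in LC427 and 2491 CPM in Vehicle empty droplets, a ratio of 1.08. Of 78 mitochondrial ribosomal proteins, 1 was higher and 1 lower in macrophages, and in mature regulatory DC 3 were higher and 21 lower of 64 measured.

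The authors' deposited tables of cluster means hold 11 clusters for LC427 and 13 for Vehicle, clustered separately and with no link to single cells. In the authors' deposited tables the family took 5.76% to 26.6% of the cluster signal in LC427, with a median of 20.4%, and 2.59% to 30.5% in Vehicle, with a median of 19.3%. The lowest Vehicle cluster had 33.1% mitochondrial signal and 20.8% from the ribosomal RNA loci. The lowest LC427 cluster had 3.16% mitochondrial signal. Both were the highest mitochondrial values of their library, and their part in the low ends was not tested. The short members made up 23.7% to 38.2% of the family over the LC427 clusters, with a median of 31.9%, and 16.6% to 30.0% over the Vehicle clusters, with a median of 22.3%, in the same tables. Rps27l ranged from 0.120% to 0.626% of the family in LC427 clusters and from 0.0895% to 0.956% in Vehicle clusters. The ranges of the libraries overlapped for each of these values.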

How the data were processed

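What the authors deposited per library is a UMI count matrix over all barcodes and a cluster table of mean counts (a signal), log2 fold changes and adjusted p-values. Only the matrices and the cluster means were used. Cell Ranger 3.0.1, Seurat 3 and GRCm38 are named per the submitters' processing notes, and Cell Ranger 4 wrote the matrices per the file headers. There were 0 unused columns of per-sample values.

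Barcodes were kept as cells from 1000 UMIs and 400 genes up, with mitochondrial UMIs at 10% or lower. Gates were set on marker UMIs, and barcodes in more than 1 gate were left out. Scrublet (scanpy 1.11.5) called 0 doublets in both libraries and was taken not to have worked. UMIs were summed per gate, and CPM ratios were given for genes with at least 20 UMIs over both libraries, with Clopper-Pearson or conditional binomial intervals (scipy 1.17.1). Ratios of the whole family's share had log-scale binomial intervals. A count of 0 stood at 3 counts, and "called" means 1.5-fold. Named genes were members by role, the 5 of most UMIs, and the 5 highest and 5 lowest family share ratios per gate, some of which are not reported here. The scripts were tested on simulated data. Members and lists were chosen with earlier results of these data known. Alternatives covered cells, depth, gates, doublets, totals, scaling and thresholds.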

Additional observations from a re-analysis of the deposited data

Results flagged for a closer look

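Barcodes between empty droplets and cells, which no comparison above uses, carried a larger ribosomal protein share in LC427 than in Vehicle. Above 100 and up to 300 UMIs the share was 14.6% in LC427 and 10.7% in Vehicle, a ratio of 1.36. Above 300 and up to 500 UMIs it was 16.1% in LC427 and 10.1% in Vehicle, a ratio of 1.60, and above 500 and under 1000 UMIs 17.3% in LC427 and 11.6% in Vehicle, a ratio of 1.49. Mitochondrial genes made up 2.83% of UMIs in LC427 and 12.5% in Vehicle above 300 and up to 500 UMIs, and 2.13% in LC427 and 12.5% in Vehicle above 500. Their part in the shares was not tested. The ribosomal RNA loci made up 17.1% of UMIs in LC427 and 36.3% in Vehicle above 100 and up to 300 UMIs. With those loci out of the total, the share in that range was 17.6% in LC427 and 16.8% in Vehicle, a much smaller gap. Above 300 UMIs the gap stayed wide on that total, with 19.6% in LC427 and 13.97% in Vehicle above 500 and under 1000 UMIs. Rps29, Rpl37a and the other short members made up 40.5% of the family in LC427 and 31.1% in Vehicle above 500 and under 1000 UMIs.

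Cells outside every gate drew attention because they moved against the macrophages. The family share had a ratio of 0.968 in ungated cells, with 21.4% in LC427 and 22.1% in Vehicle, against 1.05 in macrophages. The difference was not tested.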

How the results depend on the processing

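No recomputed family share ratio of a single named gene turned direction in the macrophage, CD8 T, mature regulatory DC and Ptprc-negative gates. The NK and CD4 T gates were not recomputed. The balance of higher and lower calls in macrophages did turn with depth and with scaling, as given above. The ratios of the whole family's share in CD8 T cells, mature regulatory DC and Ptprc-negative cells, close to 1, crossed it under several settings. The ratio of the family share (LC427 over Vehicle) in macrophages was 1.05 and became 1.04 with cells from 500 UMIs, 1.07 from 2000 UMIs, 1.04 with at most 5% mitochondrial UMIs, 1.02 with cells thinned to 1000 UMIs before gating, 1.05 with a stricter gate, 1.04 without the highest Scrublet scores, 1.04 with mitochondrial genes out of the total, 1.03 without the ribosomal RNA loci, 1.09 in cells of 2000 to under 4000 UMIs, 1.03 as a mean over cells and 1.04 with 10% of the empty profile taken off. In CD8 T cells it was 1.00 and became 1.02 from 2000 UMIs, 0.997 at 5% mitochondrial UMIs, 0.971 thinned, 1.02 with a stricter gate, 0.994 without Scrublet's highest, 0.995 without mitochondrial genes, 0.996 without the ribosomal RNA loci, 0.966 at 2000 to under 4000 UMIs and 0.986 as a mean over cells. In mature regulatory DC it was 1.01 and became 1.000 from 500 UMIs, 1.06 from 2000 UMIs, 0.942 thinned, 0.992 with a stricter gate, 1.03 without Scrublet's highest and without the ribosomal RNA loci, 0.938 at 2000 to under 4000 UMIs and 0.924 as a mean over cells. In the Ptprc-negative gate it was 0.999 and became 0.992 thinned, 1.01 with a stricter gate and without Scrublet's highest, 0.982 as a mean over cells and 0.995 with 10% of the empty profile off.

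The ratio for members of up to 300 coding bases was 1.30 in macrophages and became 1.28 from 2000 UMIs, 1.31 at 5% mitochondrial UMIs, 1.28 thinned, 1.29 with a stricter gate and 1.23 at 2000 to under 4000 UMIs. For CD8 T cells it was 1.42 and became 1.39 from 2000 UMIs and 1.35 at 2000 to under 4000 UMIs. In mature regulatory DC it was 1.37 and became 1.33 from 2000 UMIs and thinned, 1.41 with a stricter gate, 1.34 without Scrublet's highest and 1.24 at 2000 to under 4000 UMIs. In the Ptprc-negative gate it was 1.45 and became 1.39 thinned and 1.44 with a stricter gate.

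Members at least 1.5-fold apart numbered 8 in macrophages (17.1% of all genes) and became 4 thinned (25.6%), 5 with a stricter gate (16.9%) and 2 at 2000 to under 4000 UMIs (18.9%). Among CD8 T cells 13 (23.9%) became 22 thinned (31.3%). At a difference of at least 25% the counts were 26 in macrophages (42.4% of all genes), 34 in CD8 T cells (49.4%), 32 in mature regulatory DC (56.8%) and 35 in the Ptprc-negative gate (49.3%). At a fold of 2 they were 2 in macrophages (4.59%) and 0 in CD8 T cells (6.31%), mature regulatory DC (11.2%) and the Ptprc-negative gate (5.66%). Those 2 were the rare paralogues Rpl39l and Rpl3l. Of 270 recomputed values of single named genes in those 4 gates, 203 stayed within their interval, 67 moved and 0 reversed. The cause of these shifts was not tested.

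The settings on the ribosomal RNA loci, on cells of 2000 to under 4000 UMIs and on short members were chosen after seeing the data. No paired analysis was possible because each group has 1 library. Depth is lower per cell in LC427, and members with under 20 UMIs, such as Rpl10l, give no ratio. Intervals cover counting error and not the spread between mice, so no difference above has been set against biological replicates. The NK and CD4 T gates, with 91 and 65 cells in LC427, are the least deeply sampled.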
